A study of Arabidopsis thaliana with 12 samples.

Results

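Among the genes of Arabidopsis thaliana shoot apices, 69 differed from wild type in the same direction in both other genotypes of the study. The other genotypes were ap2-12, which is mutated in APETALA2 (AP2), a regulator of flower development, and the line rAP2-VENUS #A6, named for AP2 and the yellow fluorescent protein VENUS. Levels are given as CPM, the count of a gene per 1000000 counts of its library. A gene was taken when its highest genotype mean was at least 2 CPM, when all 4 wild-type libraries lay above or below all 8 others, and when the wild-type mean was at least 1.5-fold from each of the other means. Of 27416 gene rows, 17495 met the level limit and 69 met every condition, 26 with higher and 43 with lower levels in both ap2-12 and rAP2-VENUS. These are 0.149% and 0.246% of the genes at the level limit. The members were selected on these CPM values of all 12 libraries, so their differences from wild type are a description and carry no test. Separation of the libraries alone, with no fold limit, was met by 74 genes with wild type lowest (0.423%) and by 95 with wild type highest (0.543%).

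The libraries came from apices of plants kept under a 16 h light and 8 h dark cycle and harvested when the main stem was 1 cm tall. There were 4 libraries each of wild type (WT, accession Col-0), of ap2-12 and of rAP2-VENUS, and the labels describe the replicates as independent. Nothing in the labels explains the letter r, and they do not give which promoter drives the construct or whether the line carries the ap2-12 allele. It is 1 line, so an effect of the construct and one of its insertion site or background cannot be told apart. In whole apices, fewer cells of a type and less RNA per cell cannot be told apart either.

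AP2 is a transcription factor that acts in sepal and petal identity, in limiting the floral organ identity gene AGAMOUS and in the timing of flowering, and its messenger RNA is a target of the microRNA miR172. Pectin is the gel of plant cell walls that lets neighbouring cells adhere and walls stretch. Pectin methylesterases remove its methyl groups, proteins of a related inhibitor family restrain them, and polygalacturonases and pectate lyases cleave the chain. Large families encode these enzymes, and in flowers many members are known for their use in pollen, whose tube grows by adding pectin at its tip, and in the release of pollen grains from one another.

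Library totals ran from 9680133 to 15152704 counts. In WT replicates 1 to 4 AP2 itself was at 92.0, 49.2, 42.1 and 43.7 CPM. The ap2-12 libraries had 21.5, 16.1, 18.0 and 15.9 CPM of it and the rAP2-VENUS libraries 57.7, 43.5, 41.1 and 41.2 CPM. It was lower in every ap2-12 library than in any other library, though the labels do not state how the allele affects the transcript. WT and rAP2-VENUS overlapped, so AP2 is not a member. Counts on AP2 do not part the endogenous gene from a construct. Across all genes, edgeR's quasi-likelihood test called 2866 of 18807 in ap2-12 against WT (15.2%), 118 in rAP2-VENUS against WT (0.627%) and 3686 in rAP2-VENUS against ap2-12 (19.6%) at a Benjamini-Hochberg adjusted p under 0.05. Of the 69 members, 62 were called in ap2-12 against WT, 24 of the higher ones (5.65% of all genes rose) and 38 of the lower ones (9.59% fell). In rAP2-VENUS against WT 25 were called, 4 of the higher (0.261% of all genes rose) and 21 of the lower members (0.367% fell). These counts follow from the selection and are no support for it. A replicate block raised the calls in rAP2-VENUS against WT to 424 genes, 49 of them members, and DESeq2 called 50 members. Leaving out 1 library gave 11 to 29 members, and 11 to 16 without WT replicate 1, 2 or 4 or rAP2-VENUS replicate 2, 3 or 4.

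Most members were expressed at low levels. In 19 of the 26 higher members and 36 of the 43 lower members every genotype mean was under 10 CPM, so single libraries held few reads of them. The sizes of the differences were not alike in the other genotypes. Over the 26 higher members the median fold over WT was 5.51 in ap2-12 and 2.54 in rAP2-VENUS, with LBD2, which had no WT count, set at its lower bound, and the fold was larger in ap2-12 for 24 of the 25 members with a WT count. These values for the higher members are partly set by the rule, since 13 of the 26 reached the level limit through their ap2-12 mean alone. Over the 43 lower members the median fold below WT was 2.45 in ap2-12 and 3.03 in rAP2-VENUS, and the larger fold was in rAP2-VENUS for 31. The members nearest above the fold limit were PMEPCRF, a pectin methylesterase (smaller fold 1.52), AT3G14540, of the terpenoid cyclase superfamily (1.54), and IDL4, an abscission-type peptide (1.55). Those nearest below it, and so left out, were PME5 (1.496), CYP77A4 (1.49) and AT5G59990 (1.49).

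**Figure D1:**
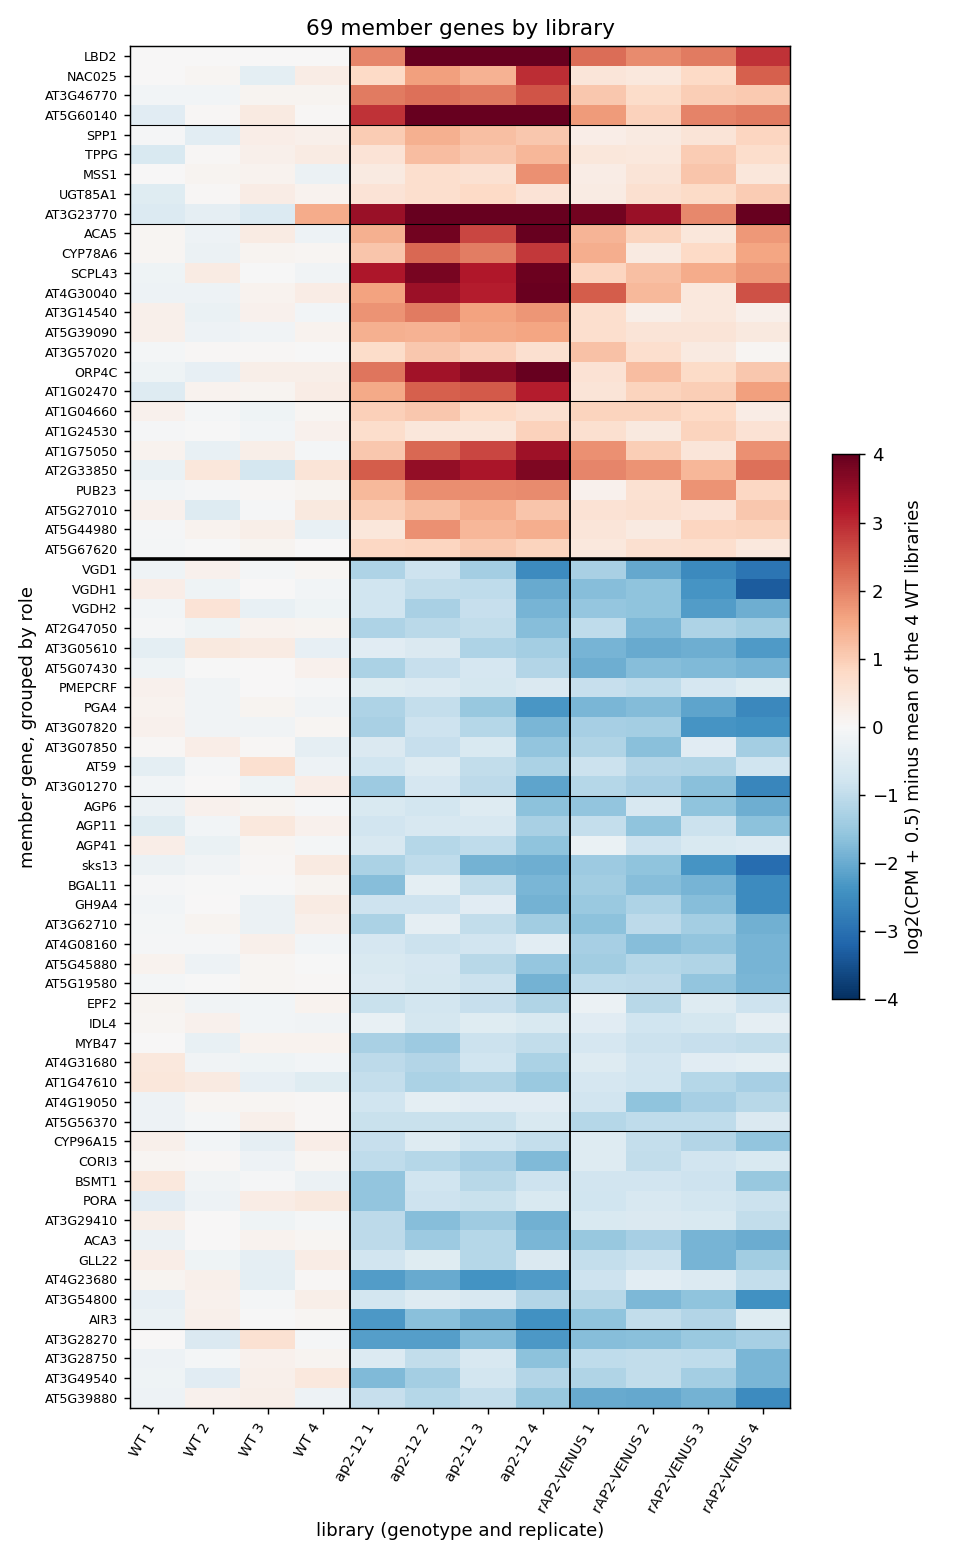
Levels of the 69 members in the 12 libraries as log2(CPM + 0.5) minus the mean of the WT libraries, with 26 higher members above the thick line and 43 lower members under it, parted into groups of roles by thin lines. The deepest reds stand in the ap2-12 columns, while many pectin and wall genes are darkest blue in replicate 4 of ap2-12 and of rAP2-VENUS.

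**Figure D2:**
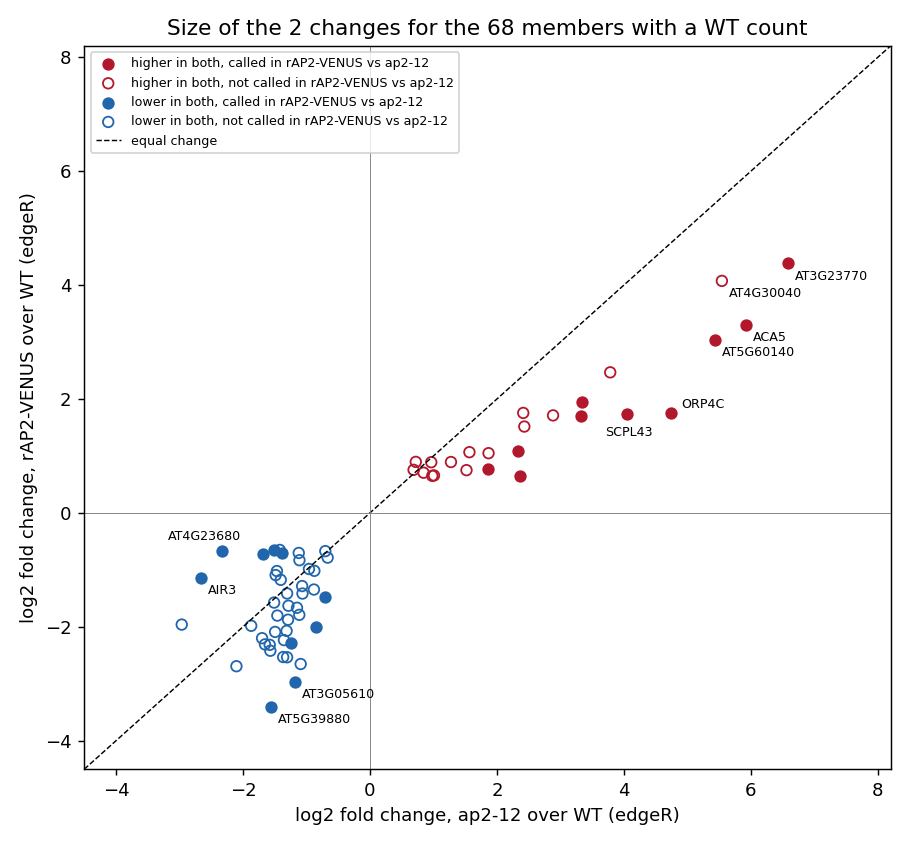
Log2 fold change against WT in ap2-12 (x axis) and in rAP2-VENUS (y axis) for the 68 members with a WT count, from the edgeR fit. Filled points were called in rAP2-VENUS against ap2-12, and points off the dashed line differ in size between the genotypes. Both axes share the WT libraries, and the rule keeps only points that lie on the same side of 0 on both.

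Pectin genes were 12 of the 43 lower members. The RefSeq name held pectin, pectate or polygalacturonase in 11 lower members (25.6%), in none of the higher members and in 96 of the 17495 genes at the level limit (0.549%), and VGDH2, named VANGUARD-like, is the 12th. The groups of roles used here were drawn by hand with the members known, so their sizes are a description. VGD1, VGDH1, VGDH2, AT2G47050, AT3G05610 and PMEPCRF belong to the methylesterases and their inhibitors, and AT59 and AT3G01270 to pectate lyases. PGA4 is named a polygalacturonase. AT3G07820, AT3G07850 and AT5G07430 are named only for the pectin lyase-like superfamily, which does not give their enzyme class. The summed level of these 12 was 71.2 ± 0.888 CPM in WT (SD, n = 4 here and below), 31.1 ± 7.35 CPM in ap2-12 and 21.0 ± 2.92 CPM in rAP2-VENUS. In each of the 12 the fold below WT was larger in rAP2-VENUS than in ap2-12.

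VGD1 (VANGUARD1) encodes a pectin methylesterase known for the growth of the pollen tube through the style. Its level was 8.47, 10.8, 9.02 and 10.02 CPM in the WT libraries, 3.74, 5.12, 3.39 and 1.25 CPM in those of ap2-12 and 3.59, 1.91, 1.23 and 0.833 CPM in those of rAP2-VENUS. WT lay 2.84-fold above ap2-12 and 5.07-fold above rAP2-VENUS, replicate 4 was the lowest library in both of these, and their ranges overlapped. VGDH1, a close homologue, stood at 7.23, 5.21, 6.04 and 5.47 CPM in the WT libraries, 3.19, 2.77, 2.67 and 1.11 CPM in those of ap2-12 and 1.5, 1.63, 0.756 and 0.139 CPM in those of rAP2-VENUS, folds of 2.46 and 5.96. VGDH2 was at 3.31, 5.54, 2.84 and 3.15 CPM, 1.83, 1.18, 1.66 and 0.624 CPM and 0.898, 0.848, 0.378 and 0.555 CPM in the same order. All rAP2-VENUS libraries but none of the WT libraries of VGDH2 were under 1 CPM, and 1 ap2-12 library was. AT2G47050, of the inhibitor family, was at 4.75, 4.29, 5.53 and 5.33 CPM in the WT libraries, 1.83, 2.08, 2.23 and 1.18 CPM in those of ap2-12 and 2.17, 1.06, 1.8 and 1.6 CPM in those of rAP2-VENUS, with almost equal folds of 2.72 and 3.005.

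VGDH1, VGD1 and AT2G47050 are consecutive genes on the same strand of chromosome 2, with no annotated gene between them, and no other members are direct neighbours. AT3G07820 and AT3G07850 have 2 genes between them on chromosome 3. The coding sequences of VGDH1 and VGD1 were identical at 91.8% of aligned bases, those of VGDH2 and VGD1 at 75.9%, and those of AT3G07820 and AT3G07850 at 63.3%, so reads may be shared between VGDH1 and VGD1 in particular and their levels are not wholly independent. Chromosome 3 held 29.0% of the members and 19.9% of the genes at the level limit.

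PGA4 is a polygalacturonase, an enzyme class that cuts pectin. Its level was 9.19, 7.46, 9.02 and 7.5 CPM in the WT libraries, 3.19, 4.02, 2.59 and 1.25 CPM in those of ap2-12 and 1.94, 2.12, 1.51 and 0.972 CPM in those of rAP2-VENUS. The fold below WT was 3.004 in ap2-12 and 5.07 in rAP2-VENUS. AT3G07820, a pectin lyase-like protein, ran at 4.95 to 6.3 CPM in WT, 1.18 to 2.84 CPM in ap2-12 and 0.625 to 1.87 CPM in rAP2-VENUS. The pectate lyase AT3G01270 was at 6.2, 6.86, 6.04 and 8.27 CPM in the WT libraries, 2.15, 4.08, 3.03 and 1.18 CPM in those of ap2-12 and 2.84, 2.4, 1.8 and 0.694 CPM in those of rAP2-VENUS, again lowest in replicate 4 of both. AT3G05610 and AT5G07430 kept part of their level in ap2-12 (1.57 ± 0.64 and 1.94 ± 0.453 CPM, against 3.37 ± 1.1 and 4.38 ± 0.476 CPM in WT) and less in rAP2-VENUS (0.424 ± 0.106 and 0.879 ± 0.109 CPM). PMEPCRF had the smallest difference of the group, 14.2 ± 1.4 CPM in WT, 9.36 ± 0.603 CPM in ap2-12 and 8.12 ± 1.39 CPM in rAP2-VENUS, and it overlaps annotated genes on the opposite strand.

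**Figure D3:**
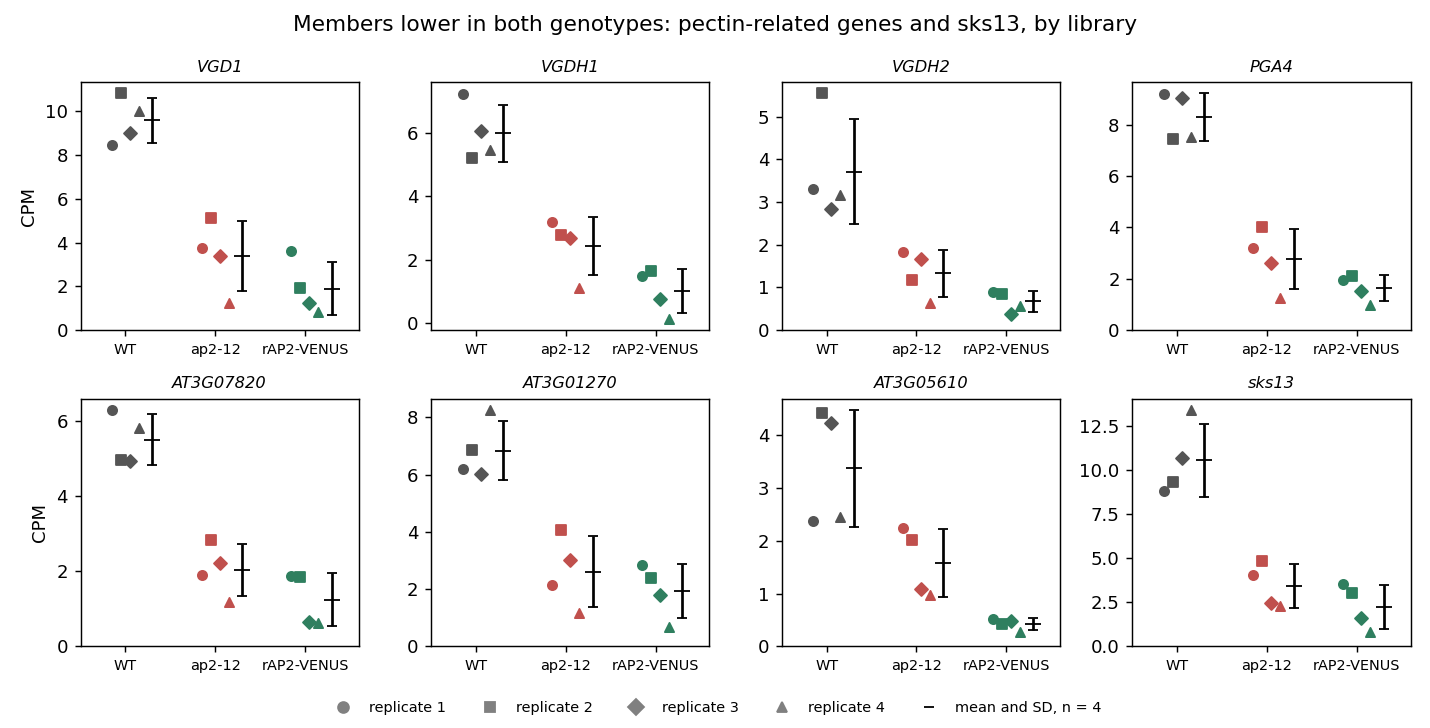
CPM of 7 pectin genes and of sks13 in each library, with marker shapes for the replicate and bars for the mean and SD of 4 libraries. In every panel the WT points lie above all others, and the ap2-12 and rAP2-VENUS points overlap except for AT3G05610.

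A sequence feature that the rule did not use was present in the promoters of some lower members. The 300 bases before each annotated start were searched for 8 motifs on both strands. One was the MEF2-type CArG box, a form of the CArG box bound by MADS-domain proteins, including the MIKC* factors known from Arabidopsis pollen. It was present in 11 of the 43 lower members (25.6%), in none of the 26 higher members and in 333 of 17428 genes at the level limit (1.91%). The motifs were chosen with the members known, and the shares are a description with no test. The 11 stretches follow, 5′ to 3′ on the strand of the gene from RefSeq assembly TAIR10.1, with the box in capitals.
PGA4 (chr1:612330-612369, minus strand): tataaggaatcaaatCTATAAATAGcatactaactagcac
AT1G47610 (chr1:17504587-17504626, plus strand): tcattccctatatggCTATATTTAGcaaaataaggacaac
VGD1 (chr2:19330230-19330269, minus strand): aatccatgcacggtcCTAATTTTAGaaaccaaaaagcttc
AT3G01270 (chr3:84949-84988, minus strand): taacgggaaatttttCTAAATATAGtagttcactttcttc
AT3G28750 (chr3:10792880-10792919, minus strand): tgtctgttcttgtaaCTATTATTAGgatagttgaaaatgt
AT3G49540 (chr3:18365411-18365450, plus strand): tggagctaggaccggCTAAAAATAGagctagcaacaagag
AT3G54800 (chr3:20285935-20285974, plus strand): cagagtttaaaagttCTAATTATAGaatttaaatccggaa
VGDH2 (chr3:23018542-23018581, minus strand): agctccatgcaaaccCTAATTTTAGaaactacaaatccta
AGP6 (chr5:4636849-4636888, minus strand): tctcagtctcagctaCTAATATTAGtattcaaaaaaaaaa
AGP41 (chr5:8151607-8151641, plus strand): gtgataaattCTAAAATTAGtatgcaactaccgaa
AT5G39880 (chr5:15970805-15970844, plus strand): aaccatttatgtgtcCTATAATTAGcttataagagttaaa

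The box began 30 bases before the start in PGA4, 57 in VGD1 and in VGDH2, 58 in AT3G28750, 67 in AT5G39880, 72 in AT3G01270 and between 112 and 290 in the others. VGD1 and VGDH2 carried the same box at the same distance. Of the 11 genes, 4 were among the 12 pectin genes, 2 among the other wall and secreted proteins and 3 among the 4 uncharacterised proteins. With windows of 200, 500 and 1000 bases the share was 20.9%, 25.6% and 25.6% in the lower members and 1.28%, 3.04% and 5.16% in all genes at the level limit. None of the 26 higher members held the box in any of these windows.

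The whole promoters of the neighbours VGD1 and VGDH1 show how the feature differs between close copies, in capitals the MEF2-type box in VGD1 and, in VGDH1, an SRF-type CArG box, another form, that began 242 bases before its start. The promoters lie at chr2:19330198-19330497 and chr2:19326485-19326784 of TAIR10.1, both on the minus strand.
VGD1 promoter: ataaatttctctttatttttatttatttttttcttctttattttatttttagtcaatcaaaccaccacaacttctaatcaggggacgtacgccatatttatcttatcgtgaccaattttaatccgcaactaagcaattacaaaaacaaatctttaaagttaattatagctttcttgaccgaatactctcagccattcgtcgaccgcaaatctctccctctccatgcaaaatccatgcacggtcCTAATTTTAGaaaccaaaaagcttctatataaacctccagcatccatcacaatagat
VGDH1 promoter: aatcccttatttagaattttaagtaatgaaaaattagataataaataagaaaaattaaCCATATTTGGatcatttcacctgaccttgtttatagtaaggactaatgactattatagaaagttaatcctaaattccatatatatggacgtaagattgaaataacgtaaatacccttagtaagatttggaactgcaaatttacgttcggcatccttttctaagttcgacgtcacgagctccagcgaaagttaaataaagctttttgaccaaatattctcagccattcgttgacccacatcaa

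Both windows hold the 14-base run tctcagccattcgt, which begins 115 bases before the start of VGD1 and 27 bases before that of VGDH1. The annotated starts therefore stand at different places relative to the shared run, and the VGDH1 window stops short of the stretch where VGD1 carries its box. These windows therefore cannot show whether the copies differ in the MEF2-type box.

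None of the other motifs set the lower members as far from all genes. The SRF-type CArG box was in 1 lower member (2.33%, all genes 3.08%), TTTGTT, an element bound by AP2 in Arabidopsis, in 72.1% of lower and 42.3% of higher members (61.4%), and CCTCGTAC, an element of the AP2 relatives TOE1 and TOE2, in none of either (0.212%). The G-box CACGTG was in no lower and 2 higher members (8.11%), AAATATCT, the evening element of clock-regulated genes, in 2 lower and no higher members (5.73%), and the pollen elements AGAAA and GTGA in 90.7% and 81.4% of lower members (86.9% and 83.1%). The A+T content was similar, with medians of 69.7% in lower members, 68% in higher members and 68.7% in all genes.

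**Figure D4:**
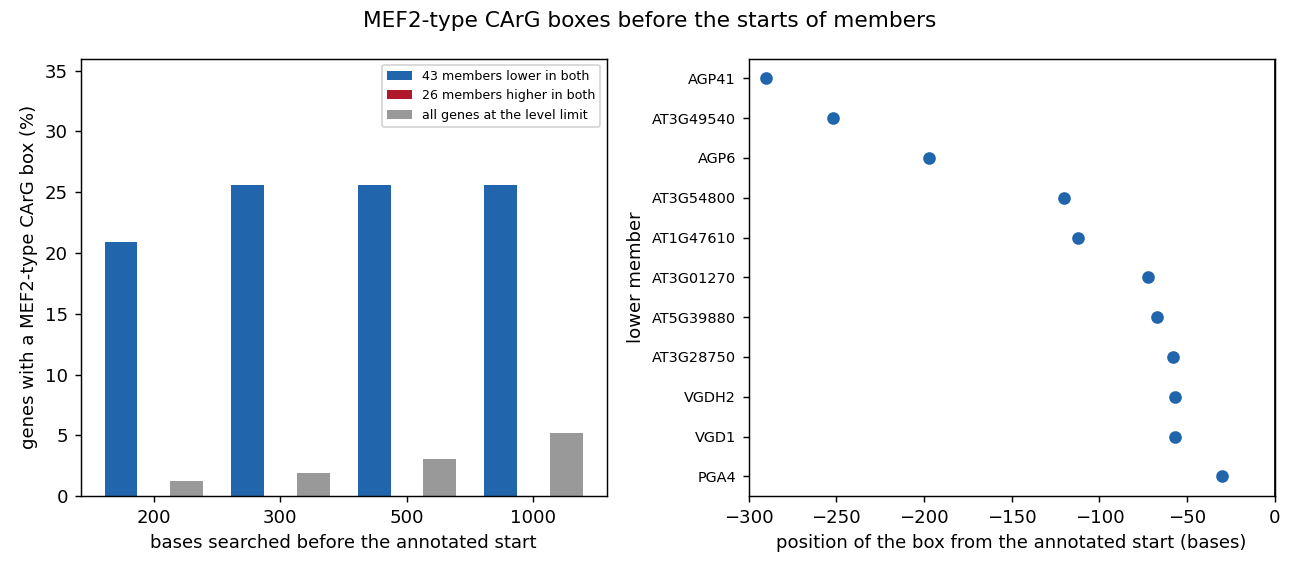
Left, share of genes (%) with a MEF2-type CArG box against the number of bases searched before the annotated start, for lower members, higher members and all genes at the level limit. Right, distance of the box from the start in the 11 lower members that hold it within 300 bases. The share is 25.6% against 1.91% at 300 bases, higher members are at 0, and 6 of the 11 boxes lie within 72 bases of the start.

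A further 10 lower members encode other cell wall or secreted proteins: the arabinogalactan proteins AGP6, AGP11 and AGP41, sks13, BGAL11, GH9A4, AT3G62710, AT4G08160, AT5G45880 and AT5G19580. Their summed level was 44.9 ± 3.56 CPM in WT, 19.5 ± 5.44 CPM in ap2-12 and 13.0 ± 3.99 CPM in rAP2-VENUS. Replicate 4 was the lowest ap2-12 library for 9 of the 10 and the lowest rAP2-VENUS library for 9. sks13, a relative of multicopper oxidases, was at 8.78, 9.31, 10.7 and 13.4 CPM in the WT libraries, 4.06, 4.85, 2.45 and 2.29 CPM in those of ap2-12 and 3.52, 3.04, 1.61 and 0.833 CPM in those of rAP2-VENUS. AGP6, which together with AGP11 is needed for normal pollen development, was at 2.27, 3.23, 3.06 and 2.66 CPM, 1.67, 1.45, 1.8 and 0.554 CPM and 0.598, 1.63, 0.567 and 0.347 CPM, and its highest ap2-12 and rAP2-VENUS libraries came within 1 CPM of the lowest WT library. AGP11 was at 2.86 ± 0.885 CPM in WT, 1.36 ± 0.36 CPM in ap2-12 and 0.91 ± 0.407 CPM in rAP2-VENUS, and the coding sequences of AGP6 and AGP11 were identical at 77.6% of aligned bases. BGAL11, a beta-galactosidase, stood at 4.77 ± 0.248 CPM in WT, 1.94 ± 1.18 CPM in ap2-12 and 0.997 ± 0.45 CPM in rAP2-VENUS. GH9A4, a glycosyl hydrolase of the cellulase family, had no count in rAP2-VENUS replicate 4 and 1.96 to 3.08 CPM in WT.

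Metabolic and lipid genes made up 10 of the 43 lower members: CYP96A15, CORI3, AT4G23680, BSMT1, PORA, AT3G29410, ACA3, GLL22, AT3G54800 and AIR3. AT4G23680, a lipid-transport superfamily protein, was at 140.5, 152, 99.9 and 136 CPM in the WT libraries, 27.6, 31.8, 24.4 and 27 CPM in those of ap2-12 and 74.1, 97.4, 89.7 and 67.7 CPM in those of rAP2-VENUS. The 3 genotypes did not overlap, and rAP2-VENUS stood between the others, 1.61-fold below WT where ap2-12 was 4.77-fold below it. CYP96A15 is the midchain alkane hydroxylase of stem cuticular wax. Its level was 113, 90.3, 75.2 and 117 CPM in the WT libraries, 51.1, 68, 56.3 and 50.3 CPM in those of ap2-12 and 67.9, 49.6, 43 and 32.1 CPM in those of rAP2-VENUS, and the lowest WT library was within 8 CPM of the highest of the others. CORI3, a coronatine- and jasmonate-induced cystine lyase, was at 39.6, 38.1, 32.1 and 39.5 CPM, 18.3, 16.7, 14.4 and 10.5 CPM and 25.6, 18.7, 21.6 and 24.2 CPM in the same order. Its coding sequence is 79.3% identical to that of AT4G23590.

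AIR3, a subtilisin-like protease named for its induction by auxin in roots, was at 4.13, 5.94, 5.09 and 5.4 CPM in the WT libraries, 0.637, 1.25, 0.937 and 0.554 CPM in those of ap2-12 and 1.35, 2.33, 1.98 and 3.54 CPM in those of rAP2-VENUS. The terpenoid cyclase superfamily gene AT3G29410 ran 9.02 to 12.3 CPM in WT, 2.36 to 4.78 CPM in ap2-12 and 4.93 to 6.71 CPM in rAP2-VENUS, again with rAP2-VENUS between the others. ACA3, an alpha carbonic anhydrase, was at 1.65, 2.05, 2.25 and 2.17 CPM, 0.717, 0.415, 0.649 and 0.208 CPM and 0.374, 0.495, 0.189 and 0.139 CPM, folds of 4.09 and 6.79 below WT. PORA, which makes chlorophyll precursors in light, stood at 10.11 ± 2.85 CPM in WT, 4.91 ± 1.39 CPM in ap2-12 and 5.63 ± 0.431 CPM in rAP2-VENUS. BSMT1, which methylates benzoic and salicylic acid, was at 2.94 ± 0.744, 1.14 ± 0.372 and 1.27 ± 0.387 CPM in that order. AIR3, ACA3 and BSMT1 overlap annotated genes on the opposite strand, whose reads cannot be told apart here. GLL22, a GDSL lipase-like protein, and AT3G54800, with PH and START lipid-binding domains, were 1.77-fold and 2.02-fold below WT in ap2-12 and 2.62-fold and 6.34-fold below it in rAP2-VENUS.

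Signalling and regulatory genes numbered 7 (EPF2, IDL4, MYB47, AT4G31680, AT1G47610, AT4G19050 and AT5G56370). EPF2, a secreted peptide that restrains entry into the stomatal lineage, was at 6.2, 5.21, 5.31 and 6.45 CPM in the WT libraries, 2.87, 3.25, 2.81 and 2.22 CPM in those of ap2-12 and 4.79, 2.4, 3.88 and 3.05 CPM in those of rAP2-VENUS. The B3-domain factor AT4G31680 was at 3.31, 2.11, 2.04 and 2.17 CPM, 0.876, 0.762, 1.15 and 0.693 CPM and 1.5, 1.2, 1.61 and 1.67 CPM, and the highest rAP2-VENUS library was within 1 CPM of the lowest WT library. IDL4 was at 2.94 ± 0.36 CPM in WT, 1.9 ± 0.312 CPM in ap2-12 and 1.82 ± 0.321 CPM in rAP2-VENUS. MYB47, a MYB factor, AT1G47610, a WD40 repeat protein, AT4G19050, an NB-ARC disease resistance-type protein, and AT5G56370, an F-box protein, were 2.65-, 2.67-, 1.55- and 1.86-fold below WT in ap2-12. In rAP2-VENUS the same genes were 2.06-, 2.18-, 2.83- and 2.01-fold below it.

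The last 4 lower members have no described role in the names used here. AT3G28270, a protein with the domain of unknown function DUF677, was at 4.13, 2.51, 6.47 and 3.86 CPM in the WT libraries, 0.478, 0.485, 0.865 and 0.416 CPM in those of ap2-12 and 0.898, 0.918, 1.13 and 1.32 CPM in those of rAP2-VENUS. AT5G39880 was at 2.27, 3.17, 3.27 and 2.31 CPM, 1.19, 0.969, 1.15 and 0.624 CPM and 0.299, 0.283, 0.378 and 0.0694 CPM, the largest fold below WT of any lower member in rAP2-VENUS (10.7). AT3G49540 was at 1.76, 1.32, 2.4 and 2.87 CPM in the WT libraries, 0.239, 0.485, 1.01 and 0.624 CPM in those of ap2-12 and 0.598, 0.777, 0.473 and 0.208 CPM in those of rAP2-VENUS, and AT3G28750 at 7.17 ± 0.895, 3.61 ± 1.24 and 2.91 ± 0.833 CPM. AT3G28270 differed more in ap2-12, and the other 3 differed more in rAP2-VENUS.

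The 26 higher members were spread over many roles. Transcription factors were 4: LBD2, NAC025 and the B3-type factors AT3G46770 and AT5G60140. LBD2, a LOB-domain factor, had no count in any WT library. It had 18, 241, 111 and 320 counts in ap2-12, or 1.43, 16.7, 7.998 and 22.2 CPM, and 25, 19, 17 and 46 counts in rAP2-VENUS, or 1.87, 1.34, 1.61 and 3.19 CPM. Against a floor of 3 counts over the 4 WT libraries (0.0568 CPM), its mean was at least 213-fold higher in ap2-12 and at least 35.3-fold higher in rAP2-VENUS. Intervals and floors of this kind cover counting error only.

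AT5G60140 was at 0, 0.198, 0.364 and 0.21 CPM in the WT libraries, 4.54, 11.8, 10.2 and 12.3 CPM in those of ap2-12 and 1.72, 0.777, 2.17 and 2.36 CPM in those of rAP2-VENUS, means 50.3-fold and 9.11-fold above a WT mean that rests on 11 counts. AT3G46770 was at 2.58, 2.57, 3.13 and 3.08 CPM, 13.5, 14.7, 13.8 and 18.4 CPM and 6.58, 5.09, 6.14 and 6.32 CPM, with no overlap between any genotypes and little spread within them. NAC025, a NAC-domain factor, was at 0.723, 0.792, 0.436 and 0.981 CPM in the WT libraries, 1.59, 3.25, 2.67 and 9.01 CPM in those of ap2-12 and 1.2, 1.13, 1.61 and 5.9 CPM in those of rAP2-VENUS, and replicate 4 was far above the other libraries in both.

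Proteins that make, carry, transfer or cleave sugars and glycans were 5: SPP1 (sucrose phosphatase, the last step of sucrose synthesis), TPPG (trehalose-6-phosphate phosphatase), MSS1 (a hexose transporter also called STP13), UGT85A1 (a glycosyltransferase) and AT3G23770 (glycosyl hydrolase family 17). AT3G23770 was at 0, 0.066, 0 and 1.54 CPM in the WT libraries, 7.57, 55.3, 30.8 and 83.4 CPM in those of ap2-12 and 10.2, 7.56, 2.27 and 15.7 CPM in those of rAP2-VENUS. WT replicate 4 held 22 of its 23 WT counts, so its folds of 110.1 and 22.2 rest on that library. TPPG was at 4.34, 7.06, 8.001 and 8.76 CPM, 10.12, 16.9, 15.1 and 17.9 CPM and 9.42, 9.4, 14.3 and 11.5 CPM, and the highest WT library was within 1 CPM of the lowest rAP2-VENUS library. SPP1, MSS1 and UGT85A1 were 3.03-, 2.54- and 1.77-fold above WT in ap2-12 and 1.67-, 1.87- and 1.87-fold above it in rAP2-VENUS.

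The other enzymes and lipid proteins were 9: ACA5, CYP78A6, SCPL43, AT4G30040, AT3G14540, AT5G39090, AT3G57020, ORP4C and AT1G02470. SCPL43, a serine carboxypeptidase-like protein, was at 0.723, 1.25, 0.873 and 0.771 CPM in the WT libraries, 12.7, 18.6, 12.4 and 20.8 CPM in those of ap2-12 and 2.02, 2.68, 3.4 and 4.1 CPM in those of rAP2-VENUS. The genotypes did not overlap, and the folds above WT were 17.8 and 3.37. ORP4C, an oxysterol-binding protein relative, was at 0.207, 0.132, 0.436 and 0.421 CPM, 2.95, 7.62, 9.37 and 14.7 CPM and 0.673, 1.34, 0.851 and 1.18 CPM, and it overlaps a gene on the opposite strand. CYP78A6, a cytochrome P450 known to promote seed size, was at 0.207, 0.066, 0.218 and 0.21 CPM in the WT libraries, 0.956, 2.77, 2.31 and 4.3 CPM in those of ap2-12 and 1.35, 0.353, 0.662 and 1.53 CPM in those of rAP2-VENUS.

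ACA5, another alpha carbonic anhydrase, stood opposite to ACA3. It had 4 counts in all of WT, at 0.103, 0, 0.218 and 0 CPM, against 1.04, 7.89, 3.17 and 9.35 CPM in the ap2-12 libraries and 0.972, 0.565, 0.284 and 1.39 CPM in those of rAP2-VENUS. The aspartyl protease AT4G30040 had 5 WT counts and was at 1.27, 5.75, 4.61 and 8.45 CPM in the ap2-12 libraries and 2.62, 0.918, 0.284 and 2.92 CPM in those of rAP2-VENUS. AT1G02470, a lipid-transport superfamily protein, was at 0.103, 0.462, 0.436 and 0.561 CPM, 1.99, 4.08, 4.32 and 7.14 CPM and 0.748, 1.13, 1.23 and 2.22 CPM, and it overlaps the gene AT1G02475 on its own strand. In ACA5, AT4G30040 and AT1G02470, replicate 1 was the lowest ap2-12 library and replicate 4 the highest. AT5G39090, an acyltransferase, was at 0.66 to 1.03 CPM in WT, 3.05 to 3.46 CPM in ap2-12 and 1.25 to 1.65 CPM in rAP2-VENUS, and AT3G14540 at 0.462 to 0.826, 3.03 to 4.36 and 0.833 to 1.35 CPM. AT3G57020, of the phosphotriesterase superfamily, had means of 4.61 ± 0.211, 8.71 ± 1.22 and 7.44 ± 2.68 CPM.

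The remaining 8 higher members were AT2G33850, AT1G75050, PUB23, AT1G04660, AT1G24530, AT5G27010, AT5G44980 and AT5G67620. AT2G33850, an E6-like protein, was at 2.17, 3.83, 1.45 and 4.07 CPM in the WT libraries, 16.7, 36.1, 29.98 and 42.1 CPM in those of ap2-12 and 11.9, 10.6, 7.47 and 14.3 CPM in those of rAP2-VENUS. AT1G75050, a thaumatin-type pathogenesis-related protein, was at 1.55, 0.99, 1.67 and 1.26 CPM, 3.43, 8.52, 11.2 and 18.8 CPM and 6.13, 3.18, 2.08 and 6.11 CPM. PUB23, a ubiquitin ligase that dampens immune responses, was at 0.486 ± 0.0632 CPM in WT, 2.81 ± 0.602 CPM in ap2-12 and 1.44 ± 1.03 CPM in rAP2-VENUS and overlaps a gene on the opposite strand. The other 5 were 1.7- to 3.87-fold above WT in ap2-12 and 1.56- to 2.08-fold above it in rAP2-VENUS.

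**Figure D5:**
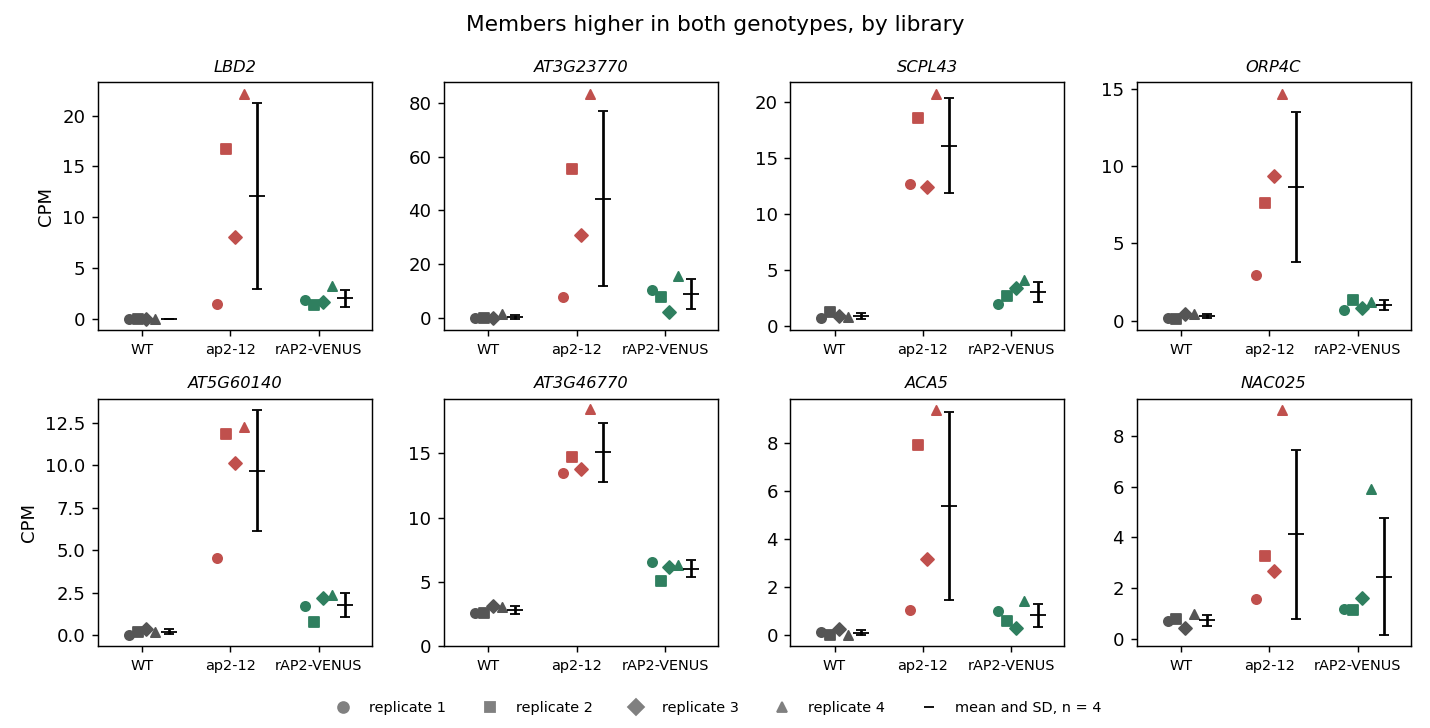
CPM of 8 higher members in each library, with marker shapes for the replicate and bars for the mean and SD of 4 libraries. The ap2-12 points lie well above rAP2-VENUS for SCPL43, ORP4C, AT5G60140 and AT3G46770, while for LBD2, AT3G23770 and ACA5 replicate 1 of ap2-12 lies within the rAP2-VENUS range.

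Whether ap2-12 and rAP2-VENUS differed from each other was tested, since the rule did not use that contrast, although it used the values of both genotypes. In rAP2-VENUS against ap2-12, 21 of the 69 members passed an adjusted p under 0.05 in edgeR's quasi-likelihood test over all genes (30.4%, against 19.6% of all genes). The level limit used the means of both genotypes, so nothing is read from this share. Of the 26 higher members, 11 were lower in rAP2-VENUS (42.3%, against 7.86% of all genes) and none was higher. The level limit favours such a fall, since 13 of the 26 reached 2 CPM through their ap2-12 mean alone and 1 through its rAP2-VENUS mean alone. Of the 11, 6 were among those 13 and 5 among the 12 that reached it in both genotypes, and nothing is read from the share of all genes. Of the 43 lower members, 5 were higher in rAP2-VENUS (11.7% of all genes were) and 5 were lower (7.86% of all genes were). Nothing is read from these 2 counts. The median log2 fold change was -0.35 over the lower members and -0.01 over all genes tested, and 21 of the 43 lower members reached the level limit in WT alone. For the 48 members not called, the difference between the genotypes did not pass the test, which does not show that their levels were equal.

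Among the higher members the smallest adjusted p-values belonged to SCPL43, AT3G46770, AT3G14540, ORP4C, AT5G60140 and AT5G39090. Of these, AT3G14540, ORP4C, AT5G60140 and AT5G39090 reached the level limit through their ap2-12 mean alone, so the rule favoured their fall. The same holds for ACA5 and AT1G02470 below, and the p-values of all these genes are given as a description. In rAP2-VENUS against ap2-12, SCPL43 fell by 2.31 on the log2 scale (SE 0.25, edgeR adjusted p = 3.25e-05) and AT3G46770 fell by 1.24 (SE 0.13, adjusted p = 3.64e-05). ORP4C fell by 2.99 (SE 0.45, adjusted p = 4.83e-04) and AT5G60140 by 2.39 (SE 0.39, adjusted p = 8.86e-04). For AT3G14540 the change was -1.72 (adjusted p = 2.52e-04) and for AT5G39090 -1.08 (adjusted p = 0.0016). In all 6 genes with the smallest adjusted p-values every rAP2-VENUS library was under every ap2-12 library. AT2G33850 and ACA5 also fell, by 1.40 and 2.62 (adjusted p = 0.0065 and 0.013). So did AT1G02470, LBD2 and AT3G23770 (adjusted p = 0.017, 0.03 and 0.042), which lost the call when single libraries were left out. LBD2 lost it in 5 of 12 omissions (adjusted p up to 0.0892), AT3G23770 in 6 (up to 0.127) and AT1G02470 in 2 (up to 0.0529).

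Of the lower members, AT4G23680 rose in rAP2-VENUS against ap2-12 by 1.66 on the log2 scale (SE 0.16, edgeR adjusted p = 1.34e-05), AIR3 by 1.53 (SE 0.33, adjusted p = 0.0057), AT3G29410 by 0.97 (adjusted p = 0.0051) and CORI3 by 0.68 (adjusted p = 0.0068). In each of these every rAP2-VENUS library lay above every ap2-12 library. AT4G31680 rose by 0.86 (adjusted p = 0.03), a call lost in 6 of 12 omissions (up to 0.0912). The 5 that fell were AT5G39880 by 1.85 (SE 0.40, adjusted p = 0.0053), the pectin genes AT3G05610 by 1.78 and AT5G07430 by 1.05 (adjusted p = 0.0062 and 0.0053), AT4G08160 by 1.16 (adjusted p = 0.0024) and AT4G19050 by 0.78 (adjusted p = 0.044). The other 10 pectin genes did not pass. Their log2 changes included -0.74 for VGD1 (SE 0.43, adjusted p = 0.27), -1.16 for VGDH1 (adjusted p = 0.12, and 0.032 with a replicate block) and -0.66 for PGA4 (adjusted p = 0.19). CYP96A15 and EPF2 were at -0.14 and 0.42 (adjusted p = 0.69 and 0.19).

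Within a genotype the members did not scatter evenly over the libraries. Of the 43 lower members, 31 had their lowest ap2-12 value in replicate 4 (72.1%, against 33.1% of genes at the level limit) and 27 their lowest rAP2-VENUS value in replicate 4 (62.8%, against 28.1%). Of the 26 higher members, 19 were lowest in ap2-12 replicate 1 (73.1%, against 36.3%) and 18 highest in ap2-12 replicate 4 (69.2%, against 27.9%). Tapetum and pollen-wall genes, which mark the anther layer that feeds pollen, moved with the same libraries. Their 12 measured genes summed to 279 to 598 CPM in WT (598 in replicate 3), to 575, 1294, 1069 and 1491 CPM in ap2-12 and to 468 to 798 CPM in rAP2-VENUS (798 in replicate 4). In ap2-12 against WT 9 of the 12 rose (5.65% of all genes did) and none fell. In rAP2-VENUS against WT none passed (0.627% of all genes did), and 4 fell in rAP2-VENUS against ap2-12 (7.86%). None of these 12 genes was a member, and the part of this list in the members' differences was not tested. Without WT replicate 3 the rule would take 149 genes, 94 higher and 55 lower. For the other omissions it took 69 to 89.

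Markers of mature pollen were read as a description, from a list made after the members were seen. Of 36 listed genes 30 were found, and 5 of these are members (VGD1, VGDH1, AGP6, AGP11 and BGAL11). In 9 of the 30 all WT libraries lay above all others, the 5 members among them by the rule. Of genes at the level limit 0.543% did, but the 30 include genes under that limit, so the shares are not directly comparable. Of the 11 tested, members included, 5 fell in ap2-12 against WT (9.59% of all genes fell), among them the members VGD1, VGDH1, AGP11 and BGAL11. In rAP2-VENUS against WT 4 fell (0.367%), among them VGD1, VGDH1 and BGAL11, and none rose in either. The rule chose these members for lying below WT, so nothing is read from the 2 counts. The sum of the 30 was 40.0 to 42.8 CPM in WT, 22.1 to 31.2 CPM in ap2-12 and 14.6 to 18.3 CPM in rAP2-VENUS. The 25 that are no members summed to 15.0 to 16.3, 14.1 to 17.4 and 9.74 to 12.7 CPM, so the WT and ap2-12 ranges overlapped without the members. Every rAP2-VENUS sum of these 25 was under every WT sum. PRK2, a pollen receptor-like kinase, was at 1.41 ± 0.156 CPM in WT, 0.398 ± 0.199 CPM in ap2-12 and 0.186 ± 0.0888 CPM in rAP2-VENUS, under the level limit of the rule. Other genes of the list were at or near 0 in every library. Among them were the profilins PRF4 and PRF5, the aquaporin TIP1;3, the sugar transporter STP6 and the tube regulator MYB120. Each had a mean of at most 0.0733 CPM in any genotype. The MIKC* factors AGL66 and AGL104 had means of at most 0.143 CPM. AGL30 was at 11.6 ± 1.63, 12.1 ± 0.937 and 12.0 ± 2.03 CPM and AGL65 at 6.76 ± 1.83, 7.05 ± 1.35 and 5.51 ± 1.11 CPM in WT, ap2-12 and rAP2-VENUS, and neither passed the test in any comparison. Of 8 listed sperm cell genes 7 were found. DAZ1 and DAZ2 had no count in any library, DUO1, GEX1 and GEX3 had means of at most 0.177 CPM, and HAP2 had means of 1.15 to 1.42 CPM. GEX2 was at 13.3 ± 1.22 CPM in WT, 14.5 ± 1.52 CPM in ap2-12 and 10.3 ± 1.57 CPM in rAP2-VENUS, and it fell by 0.40 on the log2 scale in rAP2-VENUS against ap2-12 (edgeR adjusted p = 0.0303).

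Of 25 gene lists on flower, meristem, vascular, cuticle, hormone and stress functions, 2 held a member: cuticular wax (CYP96A15) and the stomatal lineage (EPF2). In the wax list 7 of 14 genes, the member CYP96A15 among them, fell in ap2-12 against WT and none rose (9.59% of all genes fell). In rAP2-VENUS against WT 1 fell, which was CYP96A15 itself (0.367%), and 4 rose in rAP2-VENUS against ap2-12 (11.7% of all genes did). The list median was -0.30 in ap2-12 and -0.13 in rAP2-VENUS on the log2 scale, where all genes tested had medians of 0.00149 and 0.000549. In the stomatal list 5 of 9 fell in ap2-12, EPF2 among them, and in rAP2-VENUS 1 rose (0.261% of all genes rose) and none fell. That gene was FAMA, the factor of the last guard cell division, at a log2 change of 0.90 (edgeR adjusted p = 0.016), and it fell by 1.46 in ap2-12 (adjusted p = 6.29e-05). Of the 14 wax and 9 stomatal genes, CYP96A15 and EPF2 alone had all WT libraries above all others (0.543% of genes at the level limit did). The rule asked this of both, as members.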

How the data were processed

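The authors deposited raw read counts per gene for 12 libraries, as whole numbers. The build is TAIR10, per the file headers, and the submitters' processing notes name TopHat2, SAMtools and HTSeq with no version, while per the labels' protocols polyA RNA was read as single reads of 150 bp. How strand was handled in counting is not stated there. Counts were turned into CPM on column totals for the rule, and genes kept by filterByExpr were tested in 1 edgeR (4.0.16, R 4.3.3) quasi-likelihood fit of all libraries with TMM scaling and genotype as the only term. Benjamini-Hochberg adjustment ran over all 18807 genes. The rows hold no unassigned reads, and the 210 organelle rows hold 0 counts. Gene names and promoters came from RefSeq assembly TAIR10.1, whose table held 26719 of the identifiers and lacked 697. Coordinates printed are those of this assembly, which is named differently from the build of the counts.

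The members, gene lists, motifs and roles were chosen with earlier results of these data known. The 12 largest differences on each side, members called between ap2-12 and rAP2-VENUS, members of a list, neighbouring members and genes at the fold limit were named by rule, and the others after their values were seen. Counts of 18807 genes were simulated with no replicate structure, and changes were planted only in genes above a minimum mean count. On these the test of rAP2-VENUS against ap2-12 recovered 44.8% of 1.5-fold, 76.1% of 2-fold and 97.0% of 4-fold changes, with 12 false calls of 157. Many members had low counts, so these shares need not hold for them. Libraries of the same genotype differed beyond sampling noise in every pair (chi-square per degree of freedom 5.00 to 45.8). Same-numbered rAP2-VENUS and WT libraries, numbered in the labels, deviated together (correlations 0.63, 0.23, 0.20 and 0.43), so a blocked fit is given for that comparison. Alternatives were other scalings, DESeq2 1.42.0, limma-voom (limma 3.58.1), other filters and leaving out each library.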

Additional observations from a re-analysis of the deposited data

Results flagged for a closer look

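In a group of 4 libraries, a value was set apart when its gap to the nearest other, divided by the range of the group, passed Dixon's 95% limit for 4 values. Chance sets apart about 1 in 20 groups. Of 111 groups looked at (36 named members and AP2 in 3 genotypes), 8 held such a value. AT3G23770 was at 1.54 CPM in WT replicate 4 and at 0 to 0.0660 CPM in the other WT libraries. NAC025 was at 5.90 CPM in rAP2-VENUS replicate 4 against 1.13 to 1.61 CPM in the other rAP2-VENUS libraries. AT3G29410 was at 4.93 CPM in rAP2-VENUS replicate 4, under the 6.52 to 6.71 CPM of the others. AT3G28270 was at 0.865 CPM in ap2-12 replicate 3 against 0.416 to 0.485 CPM. AT4G31680 was at 3.31 CPM in WT replicate 1 against 2.04 to 2.17 CPM. CYP78A6 was at 0.0660 CPM in WT replicate 2, a single read, against 0.207 to 0.218 CPM. AP2 was at 92.0 CPM in WT replicate 1 against 42.1 to 49.2 CPM in the other WT libraries, and at 57.7 CPM in rAP2-VENUS replicate 1 against 41.1 to 43.5 CPM.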

How the results depend on the processing

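No alternative run reversed a named member's difference from WT or a called difference between ap2-12 and rAP2-VENUS. The number of members depended on the limits. A level limit of 5 CPM left 31 genes, a fold limit of 2 left 43 and one of 1.2 gave 120. Asking for an edgeR call in both comparisons with WT in place of separated libraries gave 24 genes, 23 of them members. TMM-scaled totals and median-of-ratios scaled totals each gave 74 genes, 68 of them members, and a level limit of 1 CPM gave 102. Leaving out 1 library at a time gave 69 to 149 genes, the highest without WT replicate 3.

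In rAP2-VENUS against ap2-12, the 21 members called became 20 to 28 under other scalings, tests and filters and the replicate block, and 17 to 25 when a library was left out. With the replicate block, calls over all genes rose to 6215 in rAP2-VENUS against ap2-12, to 5419 in ap2-12 against WT and to 424 in rAP2-VENUS against WT, and 28 members were called in the first of these, with 15 of the higher members lower in rAP2-VENUS. The main fit did not use the replicate numbers. Deviations from the group means over all genes were correlated between same-numbered libraries of replicates 1 to 4. The correlations were 0.60, -0.01, 0.47 and 0.39 for ap2-12 and WT. They were 0.54, 0.06, 0.05 and 0.56 for rAP2-VENUS and ap2-12. Over the members alone these were 0.01 to 0.31 and 0.12 to 0.74. Some same-numbered libraries thus deviated together in the comparisons with ap2-12 too, and the main fit leaves this out. DESeq2 called 340 genes in rAP2-VENUS against WT, where edgeR called 118. Leaving out 1 library gave 2792 to 4097, 2038 to 3143 and 55 to 155 genes in the same order of comparisons. The lowest counts in rAP2-VENUS against WT, 55 to 76, came without WT replicate 1, 2 or 4 or any 1 rAP2-VENUS library. On column totals with no further scaling, chosen after the data were seen, 23 members were called, the median of all genes moved to -0.10 in rAP2-VENUS against ap2-12, and 1774 genes were higher and 2510 lower, where the TMM scaling gave 2207 and 1479. AT3G23770 lost its call in DESeq2 (adjusted p = 0.20), and the block added calls for CYP78A6, AT1G75050, AT3G28270 and VGDH1. The cause of these changes was not tested.

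Low depth limits what can be read from single libraries of these genes, since 1 CPM stands for 9.68 to 15.2 reads.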
